A study of Mus musculus with 12 samples.

Results

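The Reg genes encode small secreted proteins with a C-type lectin fold, and the 6 described here, Reg1, Reg2, Reg3a, Reg3b, Reg3d and Reg3g, were taken by symbol from an islet expression array. Every probe that carried one of these symbols was used, which gave 7 probes, 2 of them for Reg3b, of 45281 on the array. Of the 6 genes, among 19057 named on the array, 4 (Reg1, Reg2, Reg3b and Reg3d) were above background in at least 1 group and entered the fit with the other genes, 8875 in all. Reg3a and Reg3g were below background on every array. The islets came from male C57Bl/6Hsd mice aged 10 months, either lacking the nuclear receptor SHP (SHPKO) or wild type (WT), and fed a western diet for 6 months from the age of 4 months or kept on chow. The groups were SHPKO on western diet, WT on western diet, SHPKO on chow and WT on chow, with 3 arrays each. RNA of 5 to 9 mice was pooled per group and run in triplicate, and the design does not say whether the 3 arrays of a group share a pool, so the p-values measure the spread between arrays, which may be technical, and not that between mice. The pancreas was perfused with collagenase to free the islets.

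Reg1, also called lithostathine or pancreatic stone protein, is made in bulk by acinar cells, which secrete the digestive enzymes of the exocrine pancreas. Reg2 is a close relative that acinar cells make too and that has been described in mouse beta cells under stress. Reg3b, known as pancreatitis-associated protein, and Reg3g are antibacterial lectins that injury and the cytokine IL-22 induce through STAT3, and Reg3d is the mouse relative of the hamster islet neogenesis protein INGAP. Extl3 is a proposed receptor of the family. A fall of these transcripts in bulk islet RNA can mean fewer acinar cells or less RNA per cell, and the arrays cannot tell these apart.

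Islet hormone transcripts were abundant in every group. The insulin gene Ins2 stood at 14.54 ± 0.03, 14.56 ± 0.06, 14.54 ± 0.09 and 14.53 ± 0.08 (log2 level, mean ± SD, n = 3 arrays) in SHPKO on western diet, WT on western diet, SHPKO on chow and WT on chow. The glucagon gene Gcg had group means of 14.63 to 14.82. Both lie close to the brightest value of an array, 14.85 (log2), which quantile normalization makes equal on all arrays. A ceiling could hide differences between groups in these genes, which was not tested. Nr0b2, which encodes SHP, was not detected on any array, so its probe does not check the genotype. Arrays had a median raw signal of 80 to 88 and 13821 to 16101 detected probes (detection p below 0.01). The dimmest detected signal of an array was 5.07 to 5.48 (log2), and a probe below it carries only a bound.

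The 6 genes are neighbours on mouse chromosome 6 in the order Reg3b, Reg3d, Reg3a, Reg2, Reg1, Reg3g, with no other protein-coding gene of the RefSeq table between them. The 250 bases before the start of the 4 genes above background are shown because these genes were all lower in SHPKO while their differences with diet varied. In RefSeq's GRCm38.p6 table they lie at chr6:78425733-78425982 (plus strand) for Reg1, chr6:78404905-78405154 (plus strand) for Reg2, chr6:78370635-78370884 (plus strand) for Reg3b and chr6:78378866-78379115 (minus strand) for Reg3d, and are written 5′ to 3′ along each gene. Capitals mark matches on either strand to CACCTG (an E-box of the kind bound by the acinar factor PTF1A), TGGGAA (the core bound by RBPJ and its acinar relative RBPJL), TATAAA (the TATA element) or TTCNNNGAA (the site bound by STAT factors).
Reg1: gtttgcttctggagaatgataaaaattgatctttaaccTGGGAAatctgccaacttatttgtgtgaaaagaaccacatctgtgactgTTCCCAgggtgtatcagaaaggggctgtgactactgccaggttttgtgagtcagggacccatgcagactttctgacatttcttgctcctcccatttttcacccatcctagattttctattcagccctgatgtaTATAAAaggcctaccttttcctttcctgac
Reg2: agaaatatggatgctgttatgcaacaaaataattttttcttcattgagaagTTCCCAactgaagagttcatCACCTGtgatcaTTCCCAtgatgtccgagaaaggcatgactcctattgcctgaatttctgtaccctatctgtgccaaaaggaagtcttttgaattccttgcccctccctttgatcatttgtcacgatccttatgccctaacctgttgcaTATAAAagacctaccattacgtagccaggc
Reg3b: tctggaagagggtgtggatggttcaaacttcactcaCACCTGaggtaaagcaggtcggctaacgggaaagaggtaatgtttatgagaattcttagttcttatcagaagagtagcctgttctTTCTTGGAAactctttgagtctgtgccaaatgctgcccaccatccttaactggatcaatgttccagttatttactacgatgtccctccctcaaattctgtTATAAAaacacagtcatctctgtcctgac
Reg3d: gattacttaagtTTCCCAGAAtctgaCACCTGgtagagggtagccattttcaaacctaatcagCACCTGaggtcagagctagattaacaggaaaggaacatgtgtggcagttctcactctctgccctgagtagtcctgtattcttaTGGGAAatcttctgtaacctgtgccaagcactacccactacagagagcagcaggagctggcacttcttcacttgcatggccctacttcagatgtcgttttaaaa

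CACCTG was found in 4 of the 6 Reg windows (Reg2, Reg3a, Reg3b and Reg3d) and in 17.2% of 32851 promoter windows of the same length. TGGGAA was in 5 of the 6 (not in Reg3b), against 21.6% of all windows. TATAAA was in 4 of the 6 (Reg1, Reg2, Reg3b and Reg3g), against 12.4%, and its first base stood 30 bases before the start in Reg1 and Reg2 and 29 bases before it in Reg3b. TTCNNNGAA was in Reg3b and Reg3d, against 7.0% of all windows, and in Reg3d it overlaps a TGGGAA match. These are matches of letters, with no binding measured. The 6 windows belong to neighbouring genes of the same family and may not be independent of each other, and how alike they are was not tested.

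Loss of SHP went with lower Reg transcripts on both diets. On chow, all 4 Reg genes in the fit fell, where 1.21% of all genes fell by the same rule (a limma p of under 0.05 after adjustment, with a change of 1.5-fold or more). On western diet the same count was 4, where 1.22% of all genes fell. For each of the 4, all 3 SHPKO arrays lay below all 3 WT arrays, as for 7.35% of all genes on chow and 10.7% on western diet. Reg3b and Reg3d entered the fit through the WT groups alone, where they are high, so they had to differ, while Reg1 was detected on all 12 arrays and Reg2 on 9 of 12.

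Reg1 had raw intensities of 706.5, 593.8 and 629.7 on the 3 SHPKO chow arrays, against 14591, 15327 and 10346 on the 3 WT chow arrays. No SHPKO array came near a WT array. On the normalized log2 scale the level was 9.10 ± 0.10 in SHPKO and 13.66 ± 0.13 in WT (mean ± SD, n = 3), a difference of -4.56 ± 0.10 (log2 ± SE, limma adjusted p = 1.8e-11), which makes Reg1 23.6-fold lower in SHPKO. On western diet Reg1 had raw intensities of 157.8, 154.2 and 152.7 in SHPKO, against 5513.2, 5773.2 and 4284.2 in WT. The level was 6.42 ± 0.13 in SHPKO and 12.35 ± 0.09 in WT, and Reg1 was 61.2-fold lower (difference -5.93 ± 0.10, adjusted p = 1.3e-12). That was the largest fall of all 8875 genes in this comparison, and on chow Reg1 ranked 6 among the falls.

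Reg2 read 131.3, 119.2 and 122.8 (raw intensity) in SHPKO on chow, against 273.7, 254.4 and 238 in WT on chow, with no overlap. It fell to 5.79 ± 0.14 in SHPKO, against 7.75 ± 0.04 in WT (log2 level, mean ± SD, n = 3), by 1.96 on the log2 scale (SE 0.13, adjusted p = 4.5e-07), or 3.89-fold. On western diet Reg2 was not detected on any SHPKO array (raw 76.3, 75.3 and 82.3), against 126, 143.9 and 108.3 in WT, and it was at least 1.67-fold lower in SHPKO. A bound of this kind sets the mean of the brighter group against the lowest signal that counts as detected on the dim arrays. The limma adjusted p of 3.4e-06 belongs to the fitted difference of -1.60, which uses the undetected values, and not to the bound.

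Reg3b, on its detected probe, was below background on all SHPKO arrays. Raw values were 92.2, 84.6 and 81.5 in SHPKO on chow, against 170.4, 174 and 151.5 in WT on chow, and 77.1, 76.5 and 72.7 in SHPKO on western diet, against 157.9, 173.8 and 135.3 in WT on western diet. It was at least 3.11-fold lower in SHPKO on chow and at least 2.49-fold lower on western diet. No p-value is set beside the bounds of Reg3b and Reg3d, since both genes entered the fit through the WT groups alone. The other Reg3b probe read 66.3 to 83.1 over the 12 arrays and was detected on none, so the gene's 2 probes disagree and the Reg3b result rests on 1 of them. Reg3d read 74.7, 71.2 and 81.4 in SHPKO on chow, against 207.2, 206.4 and 163.7 in WT, and was at least 3.88-fold lower. On western diet it read 77.7, 65.1 and 68.1 in SHPKO, against 133, 127.2 and 119.5 in WT, and was at least 1.72-fold lower.

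Reg3a and Reg3g gave no level to compare. Reg3a read 73.3 to 92 (raw intensity, detection p 0.0823 to 0.861) and Reg3g 63.5 to 89.8 (detection p 0.121 to 0.991) over the 12 arrays. Reg4, a family member encoded elsewhere in the genome and not among the 6, read 69.5 to 79.9 and was not detected on any array either. A low transcript level and a probe that binds its target poorly look alike here, and the probe sequences were not used, so how far the signals of close paralogs mix was not tested.

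**Figure D1:**
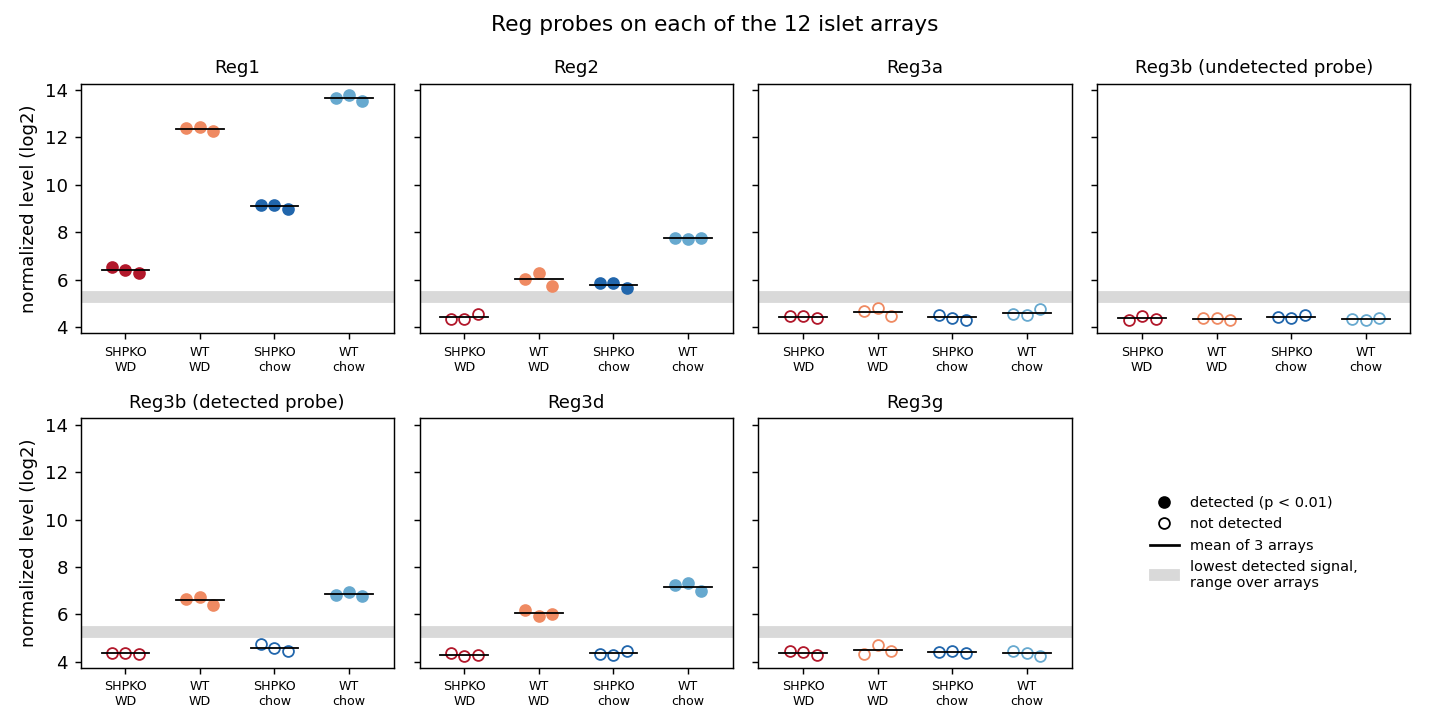
Normalized log2 level (vertical axis) of the 7 Reg probes on each of the 12 arrays, by group (horizontal axis), with SHPKO left of WT within a diet. Filled points are detected arrays, open points are not, lines are means of 3 arrays and the grey band is the lowest detected signal (5.07 to 5.48). Reg1 is detected in all groups, Reg2 in all but SHPKO on western diet, Reg3b (1 probe) and Reg3d in WT alone.

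In WT islets the western diet lowered 3 of the 4 Reg genes, where 1.48% of all genes fell. Reg2 fell to 6.01 ± 0.28 on western diet, against 7.75 ± 0.04 on chow (log2 level, mean ± SD, n = 3), a difference of -1.74 ± 0.13 (log2 ± SE, limma adjusted p = 9.5e-06), or 3.34-fold lower. Reg1 fell by 1.31 (SE 0.10, adjusted p = 1.1e-05, 2.48-fold lower) and Reg3d by 1.12 (SE 0.11, adjusted p = 7.5e-05, 2.18-fold lower). The 3 western diet arrays lay below the 3 chow arrays for each of these genes and, once normalized, for Reg3b, as they did for 12.2% of all genes. Reg3b differed by -0.27 ± 0.11 (adjusted p = 0.17) and did not pass. Its raw values overlapped, at 135.3 to 173.8 on western diet and 151.5 to 174 on chow.

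In SHPKO islets the diet lowered Reg1 and Reg2, where 1.09% of all genes fell. All 3 western diet arrays lay below all 3 chow arrays for Reg1, Reg2 and, wholly below background, Reg3b, as for 12.1% of all genes. Reg1 was 6.43-fold lower on western diet, at 6.42 ± 0.13, against 9.10 ± 0.10 on chow (difference -2.68 ± 0.10, adjusted p = 7.3e-09). Only 1 of 8875 genes fell further in this comparison. Reg2, detected on all 3 SHPKO arrays on chow and on none on western diet, passed the test (adjusted p = 2.2e-05) but its bound is only at least 1.44-fold. Reg3b and Reg3d were undetected on both diets in SHPKO and allow no comparison there. The diet and genotype comparisons share arrays, so none of them is separate evidence of another.

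Reg1 and Reg2 were lowest in SHPKO on western diet and highest in WT on chow. For Reg1, SHPKO on chow came next and WT on western diet above it, and no neighbouring groups overlapped. For Reg2, WT on western diet (raw 108.3 to 143.9) and SHPKO on chow (119.2 to 131.3) overlapped and cannot be ordered. The genotype effect on Reg1 was larger on western diet than on chow by -1.38 ± 0.14 (interaction, log2 ± SE, adjusted p = 0.00013), where 0.586% of all genes had a called interaction below 0 and 1.49% one above 0. Reg2 gave 0.36 ± 0.18 (adjusted p = 0.45) and Reg3b 0.03 ± 0.15 (adjusted p = 0.98). Reg3d gave 1.05 ± 0.15 (adjusted p = 0.0018), but with both SHPKO groups below background this is nearly all the fall in WT (-1.12) with its sign turned, and no diet difference was measured in SHPKO to set against it. Without background correction it was 0.58, under the minimum fold.

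**Figure D2:**
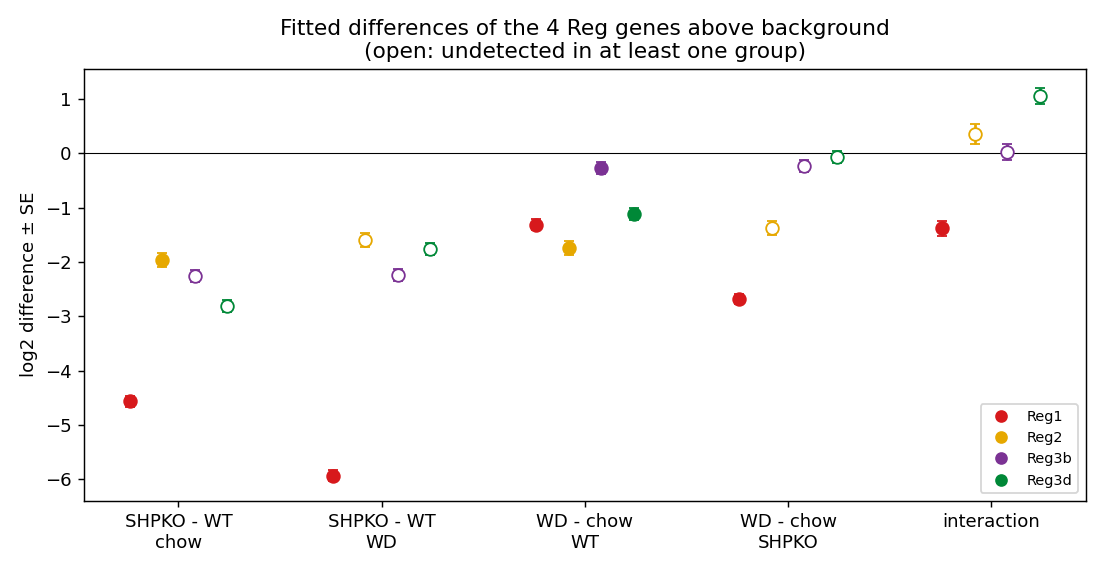
Fitted log2 differences (vertical axis, points, with SE as bars) of Reg1, Reg2, Reg3b and Reg3d in the 4 comparisons and the interaction (horizontal axis). Open points mark values for which at least 1 group was below background. Reg1 lies lowest in both genotype comparisons and in the diet comparison in SHPKO.

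The genotype difference of the Reg genes stood beside a fall of acinar transcripts at large. All 21 acinar enzyme genes in the fit were lower in SHPKO, on chow with a median log2 difference of -3.89 (lowest -5.11 for the trypsinogen Prss3, highest -0.64 for the amylase Amy2a5) and on western diet with a median of -3.69, where the median of all genes was 0.006 and 0.017. The summed linear level of these enzymes was 35200 to 39200 in SHPKO on chow, against 266000 to 279000 in WT on chow, and 32800 to 36700 in SHPKO on western diet, against 202000 to 218000 in WT on western diet. Of 12 acinar granule, chaperone and transcription factor genes, 11 fell on each diet, where 1.21% of all genes fell on chow and 1.22% on western diet. Among them was the zymogen granule protein Gp2 on chow (difference -3.96), while the transcription factor Rbpjl was at least 5-fold lower on chow. Aqp12, Erp27, Ptf1a and Rbpjl, and Ctrc of the enzymes, were undetected in both SHPKO groups. These genes entered the fit through the WT groups alone, so they had to differ. The transcription factor Bhlha15 did not pass, at 10.19 ± 0.04 in SHPKO and 10.12 ± 0.14 in WT on chow. The part of the acinar fall in the Reg result was not tested.

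On chow the fall of Reg1 lay among those of the enzymes. It was smaller than those of 4 of the 21 and nearest to the lipase Cel (-4.59) and the lipase-related Pnliprp2 (-4.43). On western diet none of the 21 fell as far as Reg1, the nearest being the elastase Cela3b (-4.91) and the trypsin Try10 (-4.76). Reg2 on chow fell less than 19 of the 21, close to the elastase Cela2a (-1.95). It stood at 7.75 in WT on chow, where the enzymes had a median of 13.67, so it had less room to fall than most of them. The brightest probe of each array stood at 14.85 (log2), a value that quantile normalization makes equal on all arrays (raw maxima 26107.6 to 33259.9). Cela2a stood at 14.58 in WT on chow and Amy2a5 at 14.43. A ceiling could hold down the falls of such bright enzymes, which was not tested. For Reg3b and Reg3d on both diets, and Reg2 on western diet, only the bound can be read, and they are not ranked among the enzymes.

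To set each Reg gene against the general acinar level, the median log2 level of the 21 enzymes was subtracted on each array. Only changes of this difference between groups are read, since different probes do not share a scale. Reg1 minus the enzyme median was -2.35, -2.28 and -2.37 in SHPKO on western diet and -0.75, -0.77 and -0.81 in WT on western diet. On chow it was -0.57, -0.55 and -0.56 in SHPKO and -0.04, 0.12 and -0.09 in WT. Reg1 fell beyond the enzyme median on both diets, by 1.56 on western diet and by 0.56 on chow (log2). With genotype permuted within diet the mean difference of -1.06 gave p = 0.005, the smallest the exact two-sided permutation test can give over its 400 arrangements. The p-values of this kind, for 4 genes in 2 comparisons, are printed before adjustment. Where such a difference is said to be past the threshold, its adjusted p is below 0.05 (Benjamini-Hochberg over the 4 genes). With diet permuted within genotype the western diet minus chow difference was -1.28 (exact two-sided permutation p = 0.005), made up of -1.78 in SHPKO and -0.78 in WT. The enzyme median of an array is not the median of the enzymes' own differences. Between genotypes it differed by -4.38 on western diet and -4 on chow, where the median of the differences was -3.69 and -3.89. With diet it differed by -0.91 in SHPKO and -0.53 in WT, where the median of the differences was -0.06 and -0.42.

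Reg2 minus the enzyme median differed the other way between genotypes on chow, but the low level of Reg2 limits what this shows. On chow, where it was detected in both, Reg2 minus the enzyme median was -3.84, -3.85 and -3.92 in SHPKO and -5.93, -5.96 and -5.85 in WT, a rise of 2.04 relative to the enzymes while Reg2 itself fell. The exact two-sided permutation test gave p = 0.10, the smallest that 3 arrays against 3 allow. On this scale the sign was set in advance. Reg2 stood at 7.75 in WT on chow and at 4.42 in SHPKO on western diet, where it was undetected. It could not fall by 4, as the enzyme median did. Ctrc, the only enzyme near that level (7.18 in WT on chow), had a fitted difference of -2.61, with SHPKO below background. Over other value scales and acinar summaries, a set chosen after seeing the data, the rise of Reg2 relative to the enzymes was 1.53 to 2.67. In the authors' values, where a dim signal can fall further, it was 1.70. Over both diets the genotype difference relative to the enzymes was 2.41 for Reg2, 1.95 for Reg3b and 1.91 for Reg3d, but it includes SHPKO arrays on which these probes were below background. In the authors' normalized values it was 0.57, -1.33 and -2.11, so no direction relative to the enzymes is given for Reg3b and Reg3d, nor for Reg2 on western diet. With diet, Reg2 minus the enzyme median differed by -1.21 in WT, where it was detected on both diets (exact permutation p = 0.10, the smallest possible). The values over both genotypes, -0.84 for Reg2, 0.46 for Reg3b and 0.12 for Reg3d, rest in SHPKO on undetected arrays and are not read as changes.

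**Figure D3:**
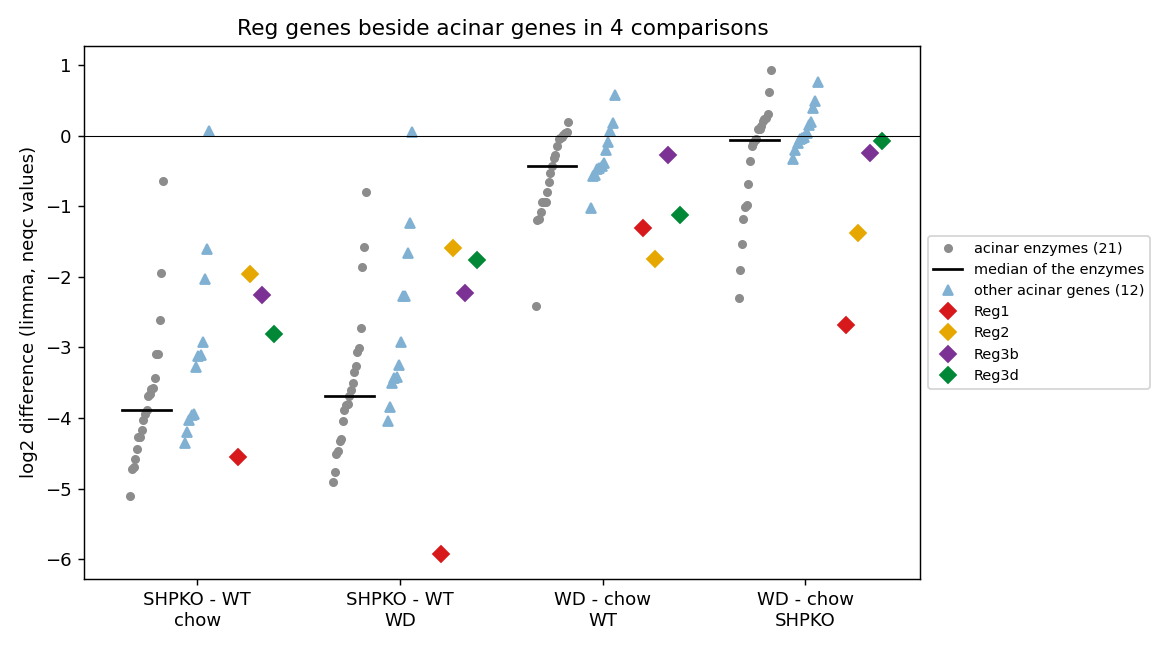
Log2 differences (vertical axis) of 21 acinar enzymes (grey), 12 other acinar genes (triangles) and 4 Reg genes (diamonds) in the 4 comparisons (horizontal axis), with black lines at the enzyme medians. Reg1 lies below all enzymes in SHPKO against WT on western diet (-5.93) and in western diet against chow in SHPKO (-2.68), and among them on chow (-4.56). Reg3b and Reg3d in both genotype comparisons, and Reg2 on western diet, are drawn at fitted values with SHPKO below background, so their place among the enzymes cannot be read. Nor can that of Reg2, Reg3b and Reg3d in western diet against chow in SHPKO. The enzyme Ctrc and the other acinar genes Aqp12, Erp27, Ptf1a and Rbpjl were undetected in both SHPKO groups and are drawn at fitted values too.

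**Figure D4:**
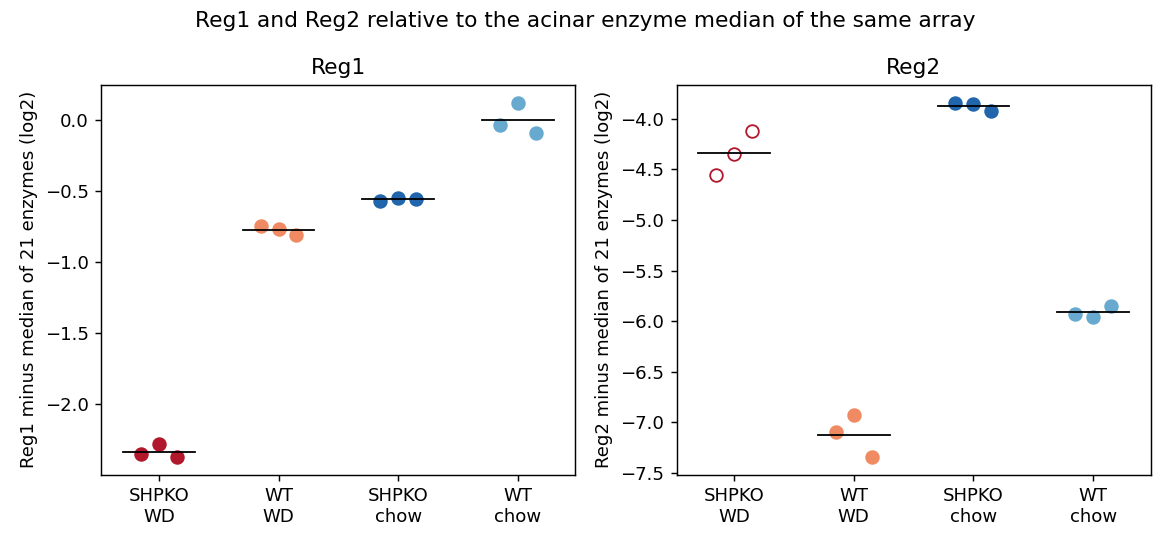
Log2 level of Reg1 (left) and Reg2 (right) minus the median of 21 acinar enzymes on the same array (vertical axes), by group (horizontal axis), with 1 point per array, lines at the means of 3 arrays and open points where the gene was undetected. Reg1 is lowest in SHPKO on western diet (-2.37 to -2.28), and on chow, where it was detected in both genotypes, Reg2 is higher in SHPKO (-3.92 to -3.84) than in WT (-5.96 to -5.85). Reg2 was too dim to fall as far as the enzyme median on this scale, so the sign of its difference on chow was set in advance.

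With diet the enzymes did not move as one, and Reg1 moved with some of them. In SHPKO islets, western diet against chow, 7 of the 21 enzymes fell and 2 rose, and 12 did not pass. The median of the 21 differences was -0.06, while the per-array median level differed by -0.91. The trypsins Try10 (-2.30), Try5 (-1.90) and Try4 (-1.53), the carboxypeptidase Cpb1 (-1.18), the elastase Cela3b (-1.01), the chymotrypsinogen Ctrb1 (-0.98) and Pnliprp2 (-0.69) fell, while colipase Clps (0.93) and the trypsin Prss2 (0.63) rose. The difference of Reg1, -2.68 on the log2 scale, was larger in size than that of any of the 21. In WT islets 9 of the 21 fell and none rose, with a median of -0.42. Prss3 fell by 2.41, Try10 by 1.20 and Try5 by 1.18, and of the 21 only Prss3 fell further than Reg1 or Reg2. Signals of near-identical trypsin genes can mix on such probes.

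The genes with profiles most like each Reg gene over the 12 arrays were ranked by the root mean square difference of log2 levels, each profile centred on its own mean. For Reg1 they were Try10 (0.55), Cela3b (0.68), Gm5771 and Cpb1 (0.71 each) and Gm10334 (0.78), against a median of 2.84 over all genes. For Reg3d the nearest were Ctrc (0.26), Reg3b (0.34), the aquaporin Aqp12 (0.36), Rbpjl (0.37) and the protein disulfide isomerase Pdia2 (0.43), against 1.23. For Reg3b they were Cela2a and Aqp12 (0.26 each), Rbpjl (0.30), Ctrc (0.32) and Cabp2 (0.33), against 1.15. Reg2 had less close neighbours, Gamt (0.53), the claudin Cldn10 (0.57), Aqp12 and Reg3d (0.60 each) and the collagen Col16a1 (0.61), against 1.22. A gene near background on most arrays has a small range, which lowers these values for Reg3b and Reg3d. Like them, Ctrc, Aqp12 and Rbpjl were undetected in both SHPKO groups, so their closeness rests in part on a shared floor. Cela2a and Pdia2 were far brighter (mean log2 levels 13.64 and 9.13), and their closeness sets a measured fall against undetected values. The neighbours of Reg3b and Reg3d are therefore not read as likeness of their changes.

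Genes known to regulate or receive Reg proteins gave few calls. Of 21 tested from a list of receptors, cytokine signalling parts and transcription factors, 0 passed between genotypes by limma on chow (2 at an unadjusted p below 0.05) or on western diet (5 at an unadjusted p below 0.05), with medians of 0.01 and 0.00. Extl3 stood at 10.22 ± 0.06 in SHPKO and 10.20 ± 0.09 in WT on chow, and at 10.24 ± 0.06 in SHPKO and 10.28 ± 0.07 in WT on western diet (log2 level, mean ± SD, n = 3). Stat3, which carries the IL-22 signal, stood at 10.09 ± 0.15 in SHPKO and 9.79 ± 0.30 in WT on chow, a difference of 0.30 ± 0.16 (adjusted p = 0.43). With diet in WT, 1 of the 21 rose, the NF-kB cofactor Nfkbiz, by 1.25 ± 0.09 (adjusted p = 4.7e-06), where 1.25% of all genes rose, and in SHPKO none passed by limma (5 at an unadjusted p below 0.05). In the interaction 1 of the 21 was called, again Nfkbiz, at -0.83 (log2), where 0.586% of all genes had a called interaction below 0.

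Other genes that the pancreas makes beside Reg proteins behaved unevenly. Of 7 acute-phase and pancreatitis genes tested, 0 passed between genotypes on chow by limma (3 at an unadjusted p below 0.05), and 1 rose on western diet, the stress protein Nupr1, by 0.63 ± 0.09 (adjusted p = 0.0012), where 1.95% of all genes rose. Nupr1 fell with diet in WT (difference -0.70, adjusted p = 0.001) and stood at 12.61 ± 0.08 in SHPKO and 11.99 ± 0.05 in WT on western diet. Of 2 trefoil and mucin genes tested, of 8 listed, both fell with SHP loss on each diet, where 1.21% and 1.22% of all genes fell. The mucin Muc1 had SHPKO minus WT differences of -0.78 for chow and -0.63 for western diet. The trefoil peptide Tff2, a secreted partner of mucins, had differences of -4.36 for chow (adjusted p = 1.4e-09) and -3.59 for western diet (adjusted p = 1.5e-08). Tff2 rose by 0.80 ± 0.17 on western diet in SHPKO (adjusted p = 0.016), where Reg1 fell and 2.2% of all genes rose. Of 5 lymphocyte markers tested, of 12 listed, 4 rose with SHP loss on western diet, where 1.95% of all genes rose. Their summed linear level was 748 to 797, against 141 to 157 in WT, where 3 of the 5 were undetected. All 5 entered the fit through SHPKO on western diet alone, where they are high, so this rise was largely set by the filter. On chow all 5 were undetected in both genotypes and allow no comparison (0 passed by limma, 0 at an unadjusted p below 0.05). All 3 erythroid markers fell with diet in WT (summed level 1470 to 1880 on western diet, against 6920 to 7340 on chow). The part of the lymphocyte and erythroid markers in the Reg values was not tested.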

How the data were processed

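Islet RNA was measured on 12 Illumina beadchips, labelled with the TotalPrep kit per the labels' protocols. The main deposited table gives raw linear intensity, per the file headers not normalized, with the authors' detection p-value beside each. The other deposited table, an alternative here, gives intensity after processing. All its columns have the same distribution, with 33.6% to 33.7% negative, as quantile normalization and background subtraction would leave them. BeadStudio is named in the submitters' processing notes, with no version or role. No genome build is given in the sources used here. RefSeq promoter windows and gene order are from GRCm38.p6.

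Raw intensities were background-corrected and quantile-normalized with neqc (offset 16) in limma 3.58.1 (R 4.3.3) and taken to log2. A probe was kept (14756 were) where some group had detection p below 0.01 on each of its 3 arrays, and the brightest kept probe stood for a gene. Of 45281 probes, 34885 had 1 gene name, 18 several and 10378 none. Symbols come from GEO's platform annotation, updated by gene ID. Group means were fitted in limma over all 12 arrays with Benjamini-Hochberg adjustment over 8875 genes. The number of arrays limits the precision.

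Named genes were the 6 Reg genes and Reg4, regulators that passed plus Extl3 and Stat3, the enzymes nearest to each Reg gene and the extremes of their list, the 5 nearest profiles, and Ins2, Gcg and Nr0b2. Enzymes called with diet, Gp2, Rbpjl, Erp27, Ptf1a, Bhlha15, Nupr1, Tff2 and Muc1 were named after their values were seen. The members and lists were chosen with earlier results of these data known. The fit was tested on simulated data. Alternatives were no background correction, the authors' values, offset 50, median scaling, other filters, all probes, fits of the compared groups, array weights, the replicate number as a block and each array left out. Deviations of same-numbered arrays correlated at -0.03 to 0.54. The 3 pairs gave 0.42, 0.15 and 0.41 in SHPKO against WT on western diet, and 0.38, 0.02 and 0.54 with diet in WT. In the other comparisons they were -0.03 to 0.22. The numbers may mark a shared batch, which the design does not state.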

Additional observations from a re-analysis of the deposited data

Results flagged for a closer look

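The genotype effect on Reg1 differed between diets by the interaction term, -1.38 on the log2 scale (limma adjusted p = 0.00013). It was -1.62 to -0.74 under the other settings and -1.44 to -1.31 with any 1 array left out. Reg3d also had an interaction, 1.05 on the log2 scale (adjusted p = 0.0018), but both SHPKO groups lay below background, so it is nearly all the diet difference in WT (-1.12) with its sign turned, and no diet difference was measured in SHPKO to set against it.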

How the results depend on the processing

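The counts of Reg genes called were 4, 4, 3, 2 and 2 in the genotype comparisons on chow and western diet, the diet comparisons in WT and SHPKO and the interaction (there Reg1, and Reg3d with SHPKO below background), and they kept these values with each array left out in turn. Of 109 recomputed counts 108 stayed within 1.5 times, the exception being the interaction without background correction, with 1 gene called. Of 436 recomputed differences of single Reg genes 425 kept their direction and side of the threshold. Direction turned in 9, none of them called. In the authors' values the interaction was -2.65 for Reg2 and -1.54 for Reg3b, and the diet difference of Reg3d in SHPKO was 0. The interaction of Reg3b, 0.03, was -0.01 without background correction, -0.05 with median scaling, -0.08 with array weights, and -0.07 to 0.11 with any 1 array left out, below 0 without WT western diet array 3, SHPKO chow array 3 or WT chow array 2. The interaction of Reg3d without background correction was 0.58, which misses the minimum fold, and that of Reg2 passed at 0.64 with an offset of 50. The Reg minus enzyme median differences changed more. In the authors' normalized values, floored at 1, the genotype difference was 0.57 for Reg2, no longer past the threshold, -1.33 for Reg3b and -2.11 for Reg3d, and the diet difference of Reg3b was -0.36. The diet difference of Reg2 was -0.21 without background correction and -0.32 with an offset of 50, and that of Reg3b was 0.06 against the other acinar list, none of them past the threshold. That of Reg3d, 0.12, was -0.15 against the mean of the enzymes and -0.28 against the other acinar list. The cause was not tested. Those of Reg1 kept their direction and call throughout, at -1.95 to -0.74 between genotypes and -1.68 to -1.0 with diet.

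Sizes of fall depend on the background step for probes near the floor. Reg3d on chow was -1.49 without background correction and -7.01 in the authors' values, while Reg1 was -4.41 and -4.60. Over all genes the calls were 187, 281, 242, 292 and 184 in the same order, 97, 126, 86 and 127 without background correction in the first 4, 381, 431, 480 and 533 with every kept probe tested, and 110 (authors' values) to 376 (array weights) in the interaction. Median scaling moved the median of all genes by 0.162 between genotypes on chow and 0.141 on western diet, with 195 genes higher and 80 lower (main 80 and 107), 277 and 84 (main 173 and 108), and 137 and 94 with diet in WT (main 111 and 131). The difference of Reg2 with diet in WT was -1.12 without background correction and -1.34 with an offset of 50, beside -1.30 for Reg1 in both, so which of them fell more depends on the background step. With the replicate number as a block, where 10 of 12 arrays correlated best with an array of their own number, a hint from the data and not the design, the Reg counts were again 4, 4, 3, 2 and 2, and the calls over all genes were 233, 292, 270, 323 and 238. Signal over background limits Reg2, Reg3b and Reg3d in SHPKO, where only bounds can be had.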
